A study of Homo sapiens with 12 samples.

Results

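The enzymes that modify and crosslink collagen were followed in 2 established uterine leiomyosarcoma (uLMS) cell lines, SK-UT-1B, from a primary tumor, and SK-LMS-1, from a metastasis. The members were the rows of the count table whose symbol was LOX, LOXL1, LOXL2, LOXL3, LOXL4, PLOD1, PLOD2, PLOD3, P4HA1 or P4HA2, and all 10 were found among 60649 genes. All 10 also passed the filter on low counts, which left 21114 genes for testing, although LOX passed through SK-LMS-1 alone. Cells of both lines, labeled WT, were exposed for 72 h to DMSO, the vehicle, or to the 3-drug combination of MK-0752, gemcitabine and docetaxel, and SK-LMS-1 also to MK-0752 alone, each at the IC30, the concentration that lowers viability by the percentage in its name. MK-0752 inhibits gamma secretase, the protease that releases the active fragment of Notch receptors, while gemcitabine blocks DNA synthesis and docetaxel stabilizes microtubules. The IC30 of MK-0752 within the combination was lower than its IC30 alone. Of the 12 libraries, SK-UT-1B had 2 after DMSO (4-1 and 4-2) and 2 after the combination (3-1 and 3-3). SK-LMS-1 had 4 after DMSO, named here by the first number of their titles as set 2 (2-1 and 2-3) and set 4 (4-1 and 4-2), 2 exposed to MK-0752 (2-2 and 2-3) and 2 exposed to the combination (4-1 and 4-2). MK-0752 was compared with DMSO set 2 and the SK-LMS-1 combination with DMSO set 4, which share the first number. The SK-UT-1B combination and its DMSO libraries carry different first numbers, so the number and the treatment cannot be told apart there. Nothing states that libraries of a group came from separate cultures, so p-values measure only the spread between libraries.

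Collagen chains are hydroxylated in the endoplasmic reticulum before they leave the cell. Prolyl 4-hydroxylase, whose catalytic alpha subunits are P4HA1 and P4HA2, makes the 4-hydroxyproline that keeps the triple helix stable, and the lysyl hydroxylases PLOD1, PLOD2 and PLOD3 make hydroxylysine. All of these hydroxylases need iron, oxygen, 2-oxoglutarate and ascorbate. PLOD1 acts mainly on helical lysines, PLOD2 on lysines of the telopeptides at the chain ends, and PLOD3 also carries sugar transferase activity. Outside the cell, LOX and LOXL1 to LOXL4, copper enzymes, oxidize lysine and hydroxylysine to the aldehydes that form the crosslinks between collagen molecules and in elastin. Crosslinks from telopeptide hydroxylysine are the kind that stiffens fibrotic and tumor matrix, and LOX, PLOD2 and P4HA1 are known targets of the hypoxia-inducible factors.

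The members that differed most between the lines are shown with the 250 bases before their first annotated RefSeq start (GRCh38.p14), beside P4HA1, whose level hardly differed between them. Capitals mark 5 letters of the core of the hypoxia response element, ACGTG, and the core bound by the Notch effector RBPJ, TGGGAA, on either strand. Sequences were matched for 9 of the 10 members (not LOXL2). The windows are chr5:122078260-122078509 (minus strand) for LOX, chr15:73926212-73926461 (plus strand) for LOXL1, chr3:146161185-146161434 (minus strand) for PLOD2, and chr10:73096867-73097116 (minus strand) for P4HA1.
LOX: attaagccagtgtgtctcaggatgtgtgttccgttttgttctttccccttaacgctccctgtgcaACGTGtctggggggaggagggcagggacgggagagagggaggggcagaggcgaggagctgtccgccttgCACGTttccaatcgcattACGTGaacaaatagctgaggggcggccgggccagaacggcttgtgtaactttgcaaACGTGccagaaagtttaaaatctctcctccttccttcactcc
LOXL1: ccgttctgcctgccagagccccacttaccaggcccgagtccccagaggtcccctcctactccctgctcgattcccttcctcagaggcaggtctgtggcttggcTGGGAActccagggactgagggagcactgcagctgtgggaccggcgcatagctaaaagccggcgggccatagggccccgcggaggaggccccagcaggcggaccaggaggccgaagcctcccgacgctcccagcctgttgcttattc
PLOD2: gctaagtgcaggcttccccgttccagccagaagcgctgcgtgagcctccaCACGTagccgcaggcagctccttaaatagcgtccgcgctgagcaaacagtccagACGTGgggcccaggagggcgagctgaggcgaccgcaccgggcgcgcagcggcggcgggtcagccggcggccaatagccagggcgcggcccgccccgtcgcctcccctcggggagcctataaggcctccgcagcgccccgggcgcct
P4HA1: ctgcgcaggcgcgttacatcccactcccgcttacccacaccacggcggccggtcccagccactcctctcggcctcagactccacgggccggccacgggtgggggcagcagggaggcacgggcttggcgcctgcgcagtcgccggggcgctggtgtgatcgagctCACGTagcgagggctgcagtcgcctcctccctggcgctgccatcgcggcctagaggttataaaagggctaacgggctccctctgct

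The letters ACGTG occurred 4 times before this LOX start and 1 time in each window of the other 2 LOX starts, 2 times in PLOD2, and 1 time in P4HA1. They occurred 0 times in the windows of LOXL1, LOXL3, LOXL4, PLOD1, PLOD3 and P4HA2. Among 35116 RefSeq promoters, 18.5% held ACGTG within the same length, counting both strands, so that the palindrome CACGTG would count once on each. TGGGAA occurred 1 time in LOXL1 and in no window of the other matched members, against 20.8% of all promoters. The letters TGANTCA of the AP-1 site were in none of the member windows and in 6.57% of all promoters, and TATAAA was in that of P4HA1 and in 10.7%. These matches describe letters within a short window, and their part in any result was not tested.

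Between 25250057 and 40709885 reads were counted on genes in each library. Levels are given in CPM, TMM-scaled counts relative to library size. Of the 8 smooth muscle markers 7 were tested. DMSO-treated SK-LMS-1 had 6 higher and 1 lower than DMSO-treated SK-UT-1B, beside 17% and 14.1% of all tested genes. The 6 higher include CNN1, which did not exceed 19 counts in SK-UT-1B, passed the filter on low counts through SK-LMS-1 alone and had to differ. The 1 lower was DES, which passed the filter on low counts through SK-UT-1B alone and had to differ. MYH11 was at or under 0.150 CPM in all libraries. In SK-UT-1B, TAGLN and CNN1 stayed at or under 1.72 and 0.504 CPM, ACTA2 lay between 2.77 and 5.00 CPM, and DES, at 0 in SK-LMS-1, between 1.37 and 9.76 CPM. The keratins KRT8 and KRT18 averaged 103 ± 5.20 and 130.9 ± 19.0 CPM (SD, n = 4) in SK-LMS-1 after DMSO and 0 and 0.677 ± 0.658 CPM (n = 2) in SK-UT-1B, with EPCAM and CDH1 at or under 1.04 CPM everywhere. PTPRC and CD68 did not exceed 2.47 CPM, and PECAM1 averaged 3.68 ± 1.80 CPM in SK-LMS-1 and 0 in SK-UT-1B. The lines thus differ in the markers of their labeled lineage as well, and its part in the member differences was not tested.

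LOX, the founding lysyl oxidase, showed the largest difference between lines of any member. Its gene lies on hg38 at chr5:122063195-122078413 (minus strand). In SK-LMS-1 after DMSO it measured 465 and 449 CPM in set 2 and 351 and 400 CPM in set 4, against 0 counts in all 4 SK-UT-1B libraries. A count of 0 allows up to 3 counts, which is 0.0796 to 0.107 CPM in those libraries. Against 3 counts per library, LOX was at least 4537-fold higher in DMSO-treated SK-LMS-1 and at least 3581-fold higher in combination-treated SK-LMS-1. These are given as a description, since LOX passed the filter on low counts through SK-LMS-1 alone and had to differ. SRFBP1 overlaps LOX on the other strand, and in SK-UT-1B the LOX row held no reads from either.

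LOXL1, best known for crosslinking elastin (chr15:73925989-73952137, plus strand), was also higher in SK-LMS-1, though present in SK-UT-1B. The 4 DMSO libraries of SK-LMS-1 held 219, 258, 322 and 248 CPM, and those of SK-UT-1B 13.5 and 9.07 CPM. The ranges lay far apart, and the log2FC was 4.54 ± 0.222 (SE, edgeR adjusted p = 1.78e-12), a 23.2-fold ratio of means. After the combination the log2FC was 4.80 ± 0.234 (adjusted p = 2.06e-12). LOXL2, which can also act on basement membrane collagen (chr8:23296897-23425328, minus strand), was the member of the LOX family with the smallest called difference. It measured 78.8, 90.8, 136 and 86.3 CPM in SK-LMS-1 and 25.4 and 19.2 CPM in SK-UT-1B after DMSO, a log2FC of 2.12 ± 0.225 (adjusted p = 1.94e-07). The difference after the combination was 2.60 ± 0.248 (adjusted p = 5.90e-08).

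PLOD2, the telopeptide lysyl hydroxylase (chr3:146035139-146163725, minus strand), was the only hydroxylase among the members called between the lines. SK-LMS-1 held 584 and 551 CPM in set 2 and 440 and 512 CPM in set 4, while SK-UT-1B held 20.2 and 29.6 CPM after DMSO. The log2FC was 4.38 ± 0.202 (edgeR adjusted p = 6.81e-13), a 20.9-fold ratio of means. After the combination it was 3.47 ± 0.201 (adjusted p = 3.01e-11), with 492 and 509 CPM against 51.9 and 38.6 CPM.

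Thus 4 of the 10 members, LOX, LOXL1, LOXL2 and PLOD2, were called higher in DMSO-treated SK-LMS-1, where a call needs an adjusted p under 0.05 and a log2FC of 1 or more in size, and 0 lower, beside 17% of all tested genes called higher and 14.1% lower. Without LOX, which had to differ, 3 members are left. DESeq2 called 4 members as well, among 6972 genes in both directions. After the combination the count was again 4 higher, beside 15.6% of all genes, and 0 lower, beside 9.88%. The median log2FC of the members was 1.00 after DMSO and 0.75 after the combination, against 0.00 and 0.02 over all tested genes. All medians of the members between the lines include LOX, which had to differ. Without LOX the middle log2FC is 0.73 (P4HA2) after DMSO and 0.65 (LOXL4) after the combination. Of absolute differences the members' median, 1.00, was below the 1.45 of all genes, and the 6 members not called had log2FC between -0.49 and 1.27. In the plot of the log2FC between lines, LOX, LOXL1 and PLOD2 stand apart from the rest. The SE of LOXL3 reaches that of LOXL2 after DMSO but not after the combination.

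**Figure D1:**
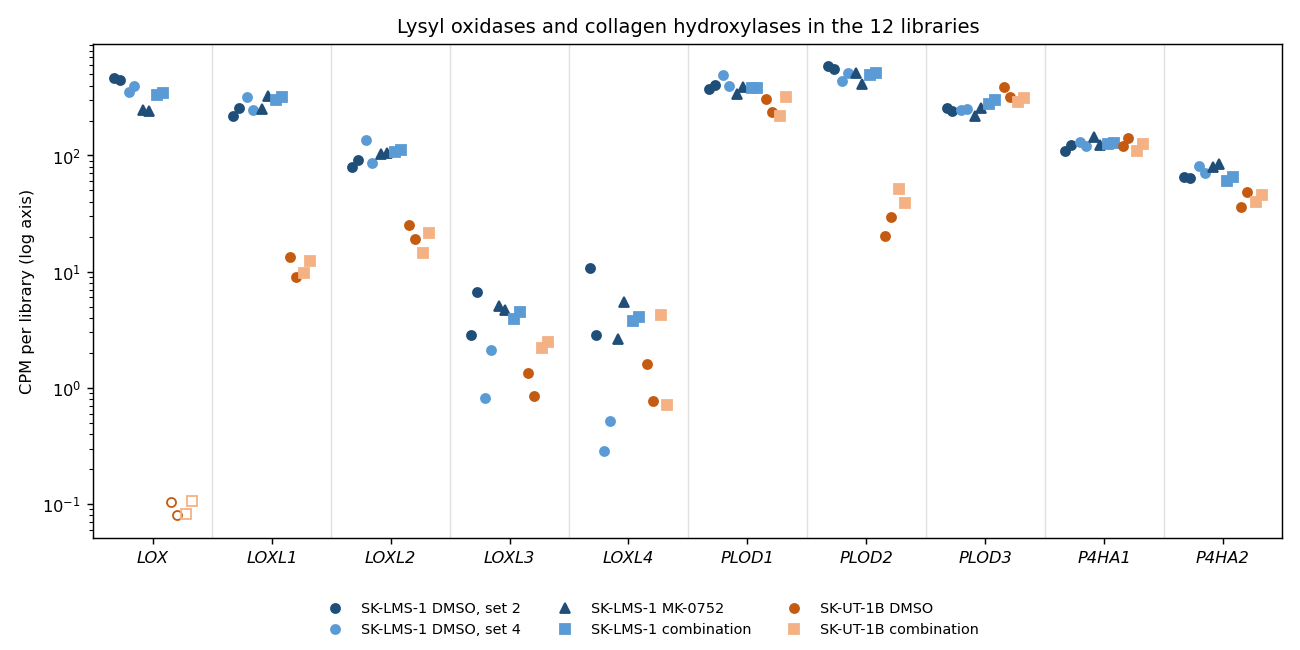
CPM of each member (log axis) in each of the 12 libraries, colored by line and group. Open marks are LOX at 0 counts in SK-UT-1B, drawn at the level of 3 counts, and the 3 other members called between the lines, LOXL1, LOXL2 and PLOD2, show orange marks well below the blue ones.

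**Figure D2:**
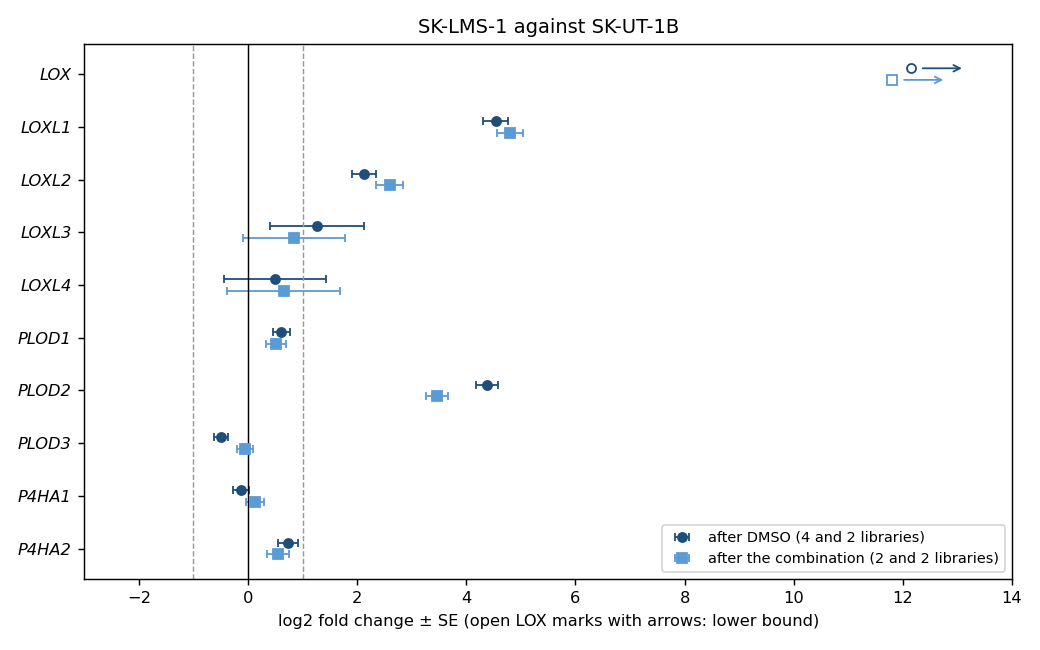
log2FC ± SE (horizontal axis) of each member in SK-LMS-1 against SK-UT-1B after DMSO (circles) and after the combination (squares), with dashed lines at an absolute log2FC of 1. LOX is drawn at its lower bound, LOXL1 and PLOD2 lie at 4.54 and 4.38 after DMSO, and PLOD3 at -0.49.

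The remaining hydroxylases differed less. PLOD1 (chr1:11934205-11975538, plus strand) measured 371, 406, 489 and 394 CPM in SK-LMS-1 after DMSO and 306 and 237 CPM in SK-UT-1B. This log2FC of 0.61 ± 0.158 passed on adjusted p alone (0.00386) but not on size. P4HA2 (chr5:132190147-132295315, minus strand) had a log2FC of 0.73 ± 0.178 (adjusted p = 0.00227), from 64.7, 64.4, 81.2 and 71.1 CPM against 36.4 and 48.1 CPM. PLOD3 (chr7:101205977-101218420, minus strand) was the 1 member lower in SK-LMS-1 on adjusted p alone, with 259, 242, 248 and 253 CPM in SK-LMS-1 and 389 and 316 CPM in SK-UT-1B, a log2FC of -0.49 ± 0.128 (adjusted p = 0.00381). After the combination PLOD3 stood at -0.05 ± 0.150 (adjusted p = 0.840) and its libraries overlapped. By adjusted p alone 7 of the 10 members differed after DMSO, beside 41% of all genes, and 6 after the combination, beside 32.9%, PLOD1 and P4HA2 among them with log2FC of 0.51 and 0.54 (adjusted p = 0.0323 and 0.0429).

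P4HA1 (chr10:73007217-73096974, minus strand) did not pass the test, with 109 to 131 CPM in SK-LMS-1 after DMSO and 121 and 142 CPM in SK-UT-1B. Its log2FC was -0.13 ± 0.143 after DMSO and 0.12 ± 0.166 after the combination (adjusted p = 0.520 and 0.622). LOXL3 (chr2:74532258-74555690, minus strand) and LOXL4 (chr10:98247690-98268194, minus strand) had few reads, with 20 to 186 and 7 to 372 counts over the libraries of both lines. In DMSO-treated SK-LMS-1, LOXL3 lay between 0.811 and 6.74 CPM and at 1.35 and 0.849 CPM in SK-UT-1B (log2FC 1.27 ± 0.858, adjusted p = 0.250). LOXL4 lay between 0.284 and 10.7 CPM and at 1.59 and 0.769 CPM (log2FC 0.49 ± 0.937, adjusted p = 0.739). Both pairs of ranges overlapped. Reads of LOXL3, LOXL1, LOXL2, PLOD3 and P4HA2 are uncertain to the extent that genes on the other strand overlap them (DOK1 and HTRA2, LOXL1-AS1, LOXL2-AS1, ZNHIT1, and P4HA2-AS1, PDLIM4 and SLC22A4), as the strand setting of the counts is not stated. Unnamed genes also overlap PLOD2, LOXL4 and P4HA1 on the other strand, and LNCSRLR and ENTPD4 overlap PLOD2 and LOXL2 on the same strand, so that reads of these members are uncertain as well.

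Levels of different members were compared per kb of exon (CPM per kb over all annotated exons), as a description. In SK-LMS-1 after DMSO the order was led by PLOD1 (77.9 ± 9.66, SD, n = 4), LOX (74.4 ± 9.15) and LOXL1 (72.0 ± 11.9), which lay within their spread of each other on this length. PLOD3 (44.2 ± 1.29), P4HA1 (39.1 ± 2.96) and PLOD2 (35.9 ± 4.29) followed, of which the latter 2 lay within their spread, and then LOXL2 (16.4 ± 4.31), P4HA2 (6.95 ± 0.778), and LOXL4 and LOXL3 (0.995 ± 1.35 and 0.692 ± 0.565). In SK-UT-1B the order was PLOD3 (62.1 ± 9.07, SD, n = 2), PLOD1 (51.1 ± 9.19) and P4HA1 (42.6 ± 4.84), neighbors within or near their spread on this length, and then a fall to P4HA2 (4.17 ± 0.817), LOXL2 (3.73 ± 0.743), LOXL1 (3.10 ± 0.855) and PLOD2 (1.72 ± 0.462), with LOXL4, LOXL3 and LOX last. The order depends on the length chosen. Per kb of the longest transcript, PLOD1 stood apart in SK-LMS-1 (139 ± 17.3), followed by LOXL1 (94.0 ± 15.5), PLOD2 (88.9 ± 10.6), PLOD3 (88.8 ± 2.59) and LOX (82.0 ± 10.1), which lay within their spread of each other, and then by P4HA1 (42.5 ± 3.22). In SK-UT-1B that length gave 124.9 ± 18.2 for PLOD3, 91.3 ± 16.4 for PLOD1 and 46.4 ± 5.27 for P4HA1, with P4HA1 well below PLOD1, and PLOD2 (4.25 ± 1.14) beside LOXL1 (4.04 ± 1.12). The sum over the LOX family was 159 ± 13.1 CPM per kb over the 8 SK-LMS-1 libraries and 7.33 ± 1.14 over the 4 of SK-UT-1B. The sum over PLOD1, PLOD2 and PLOD3 was 154 ± 8.41 against 110.8 ± 14.1, and that of P4HA1 and P4HA2 47.7 ± 3.75 against 44.3 ± 4.92.

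The families also differed in make-up. LOX made up 45.4% ± 6.70 and LOXL1 43.6% ± 5.45 of the LOX family in SK-LMS-1 after DMSO, with 9.90% ± 2.15 from LOXL2. In SK-UT-1B after DMSO, 50.7% ± 2.55 came from LOXL2 and 41.8% ± 1.17 from LOXL1. PLOD2 held 22.8% ± 3.27 of the PLOD family in SK-LMS-1 and 1.54% ± 0.641 in SK-UT-1B, where PLOD3 held 54.1% ± 0.488. P4HA1 held 84.9% ± 0.914 and 91.1% ± 0.672. The length matters here, because the annotated exons of PLOD2 and P4HA2 span 14518 and 10128 bases and their longest transcripts 5867 and 4553. With the longest transcript, LOX and LOXL1 held 40.4% and 45.8% of their family in SK-LMS-1, PLOD2 held 28.1% and 1.99% in SK-LMS-1 and SK-UT-1B, and P4HA1 73.4% and 83.4%.

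**Figure D3:**
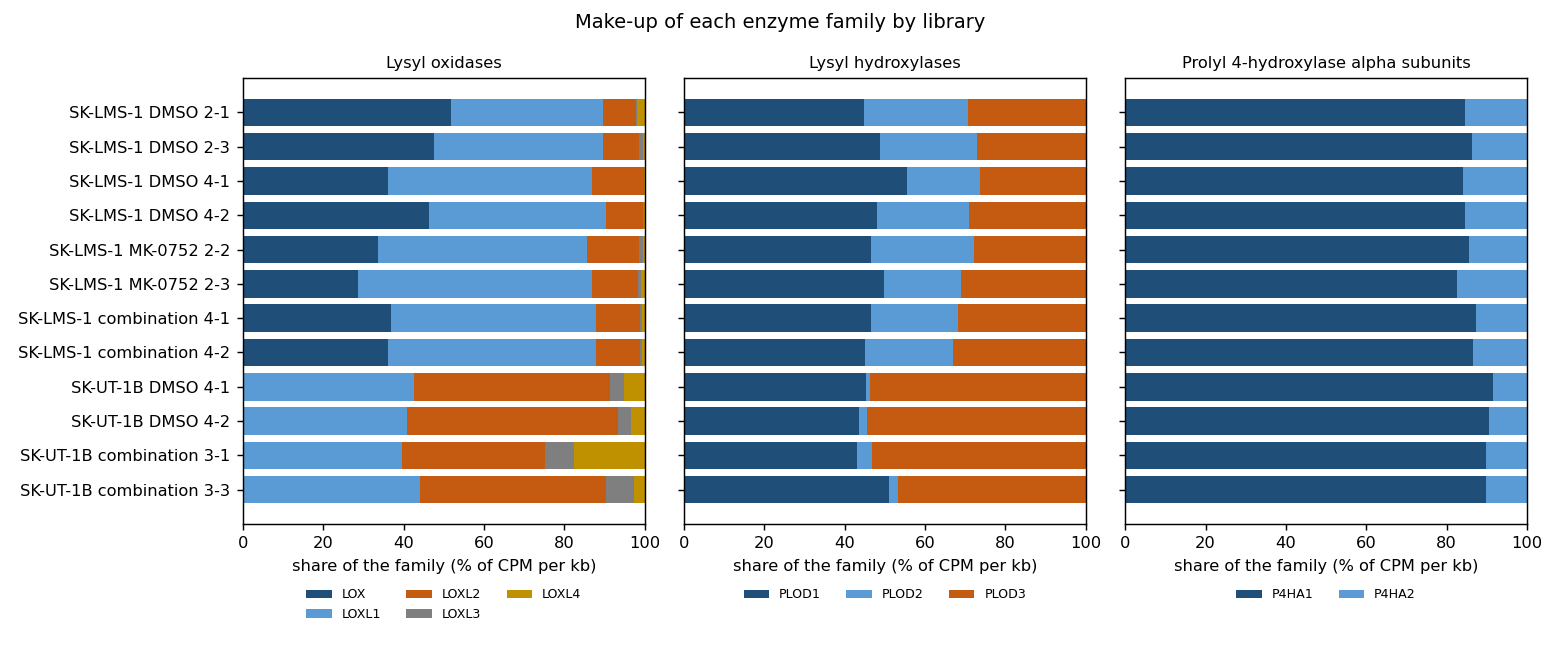
Share of each member in its family (percent of CPM per kb of exon, stacked bars) in each of the 12 libraries. LOX is missing from the 4 SK-UT-1B bars, and PLOD2 is a thin band there against 22.8% on average in SK-LMS-1 after DMSO.

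In SK-LMS-1, LOX was the 1 member that passed on adjusted p after MK-0752. It fell from 465 and 449 CPM in DMSO set 2 to 248 and 243 CPM, a fall of the mean by 46.2%. Both values also lay below the 351 and 400 CPM of DMSO set 4 and the 332 and 343 CPM of the combination. The log2FC was -0.90 ± 0.149 (edgeR adjusted p = 0.0106), which passed on adjusted p but missed the size of 1, so 0 members were called by edgeR, beside 0.251% of all genes, and 0 by DESeq2, which called 131 genes. By adjusted p alone 1 member changed, beside 0.365%, and 1 member and 1354 of all 21114 genes had an unadjusted p under 0.05. Over 10 alternatives the log2FC lay between -0.94 and -0.75 and the adjusted p between 1.73e-07 and 0.0448, the value nearest to zero coming from a control of all 4 DMSO libraries. The share of LOX in its family was 49.7% ± 3.07 in DMSO set 2 and 31.0% ± 3.52 after MK-0752 (n = 2 each), and LOXL1 made up 39.9% ± 3.15 and 55.2% ± 4.42. LOXL1 itself, at 219 and 258 CPM before and 251 and 323 CPM after, did not pass the test (log2FC 0.27 ± 0.198, adjusted p = 0.806). The other 8 members had log2FC between -0.74 (LOXL4) and 0.35 (P4HA2), with adjusted p of at least 0.806.

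After the combination, LOX in SK-LMS-1 was 332 and 343 CPM against 351 and 400 CPM in DMSO set 4, a log2FC of -0.16 ± 0.148 (adjusted p = 0.985). The LOX effect of MK-0752 minus that of the combination was -0.74 ± 0.210, which did not pass over all genes (unadjusted p = 0.00253, adjusted p = 0.642, 0.0655 to 1 over 13 alternatives). With DMSO sets 2 and 4 themselves differing in LOX by -0.28 ± 0.148 (adjusted p = 0.794), the choice of control moves these values. In the combination comparison of SK-LMS-1, 0 members were called by edgeR, beside 0.0237% of all genes, also by adjusted p alone (0.0237%), and 0 by DESeq2, which called 36 genes, and 1 member and 914 of all genes had an unadjusted p under 0.05. That member was LOXL4, at 3.79 and 4.06 CPM after the combination and 0.284 and 0.518 CPM in DMSO set 4 (log2FC 3.27 ± 1.14, adjusted p = 0.908). In DMSO set 2, however, LOXL4 stood at 10.7 and 2.86 CPM. The sets differed by a log2FC of -4.05 ± 1.18 in LOXL4 (adjusted p = 0.794), and without library 2-3 by -4.72 with an adjusted p of 0.0278, so the level of this gene differed widely among DMSO libraries. Between the DMSO sets 0 members were called by edgeR and DESeq2, beside 0% of all genes, with 1 member and 1197 of all genes at an unadjusted p under 0.05 and 33 genes called by DESeq2. In the difference of the MK-0752 and combination effects 0 members were called by edgeR, beside 0.0379%, and 0 by DESeq2, which called 40 genes, with 3 members and 1094 of all genes at an unadjusted p under 0.05.

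In SK-UT-1B, PLOD2 was the 1 member that passed on adjusted p after the combination. It stood at 20.2 and 29.6 CPM after DMSO and 51.9 and 38.6 CPM after the combination, without overlap, an increase of the mean from 24.9 ± 6.70 to 45.3 ± 9.41 CPM. The log2FC was 0.86 ± 0.187 (edgeR adjusted p = 0.0384), again past the adjusted p and short of the size. The increase left PLOD2 11.1-fold below its mean in SK-LMS-1 after the combination. Here 0 members were called by edgeR, beside 0.559% of all genes, and 1 by adjusted p alone, beside 0.715%, while DESeq2 called 0 members and 376 genes, with 1 member and 2214 of all genes at an unadjusted p under 0.05. The log2FC was 1.17 without DMSO library 4-2 and 1.06 without combination library 3-3, and PLOD2 was then called. It was 0.59 without DMSO library 4-1, and over 9 alternatives the adjusted p lay between 8.72e-08 and 0.618 and was under 0.05 in 6. The effect in SK-UT-1B exceeded that in SK-LMS-1 by 0.79 ± 0.260 for PLOD2, which did not pass (unadjusted p = 0.00691, adjusted p = 0.447), but PLOD2 was called there without SK-UT-1B DMSO library 4-2. In that comparison 0 members were called by edgeR, beside 0.232% of all genes, and 0 by DESeq2, which called 148 genes, with 1 member and 1619 of all genes at an unadjusted p under 0.05.

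LOX stayed at 0 counts in both SK-UT-1B combination libraries, so no fold is given. LOXL1 had 13.5 and 9.07 CPM before and 9.73 and 12.5 CPM after, a log2FC of -0.02 ± 0.209, and the remaining members of SK-UT-1B had log2FC between -0.31 (LOXL2) and 1.09 (LOXL3), with adjusted p of at least 0.675. Over the members with a value the median log2FC was -0.01 after the combination in SK-UT-1B, -0.03 after MK-0752 and 0.04 after the combination in SK-LMS-1, against 0.00, 0.00 and 0.03 over all genes. No treatment comparison had more than 1 member past the adjusted p.

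**Figure D4:**
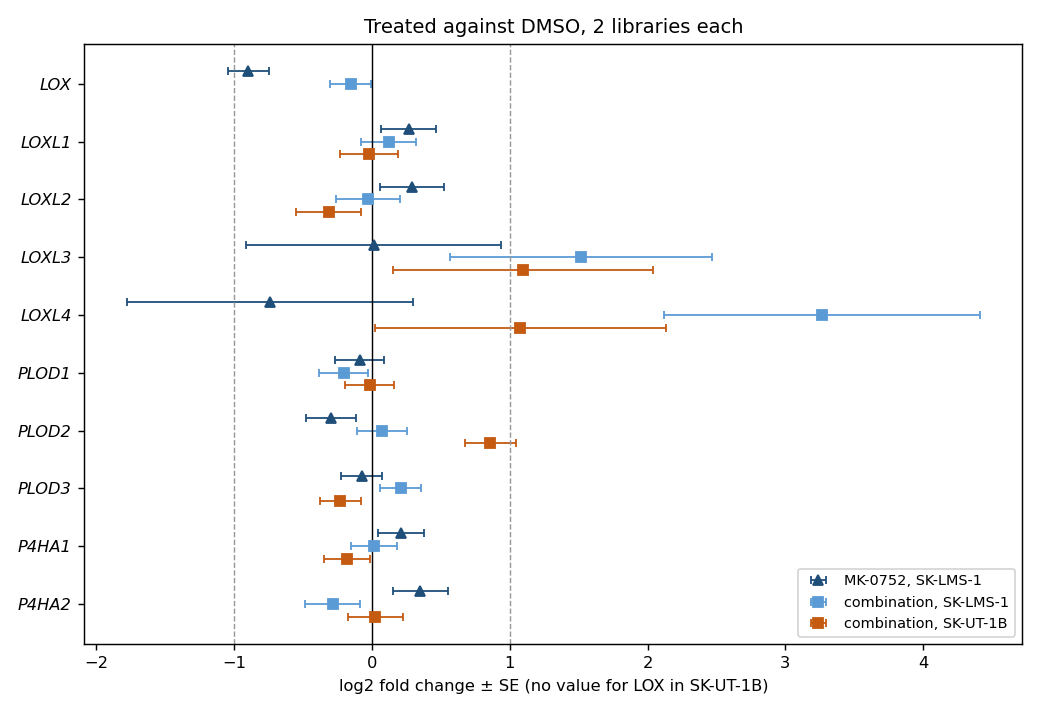
log2FC ± SE of each member in treated against DMSO libraries (2 each) for MK-0752 in SK-LMS-1, the combination in SK-LMS-1 and the combination in SK-UT-1B, with dashed lines at an absolute log2FC of 1. LOX after MK-0752 lies at -0.90 and PLOD2 in SK-UT-1B at 0.86, and the wide bars belong to LOXL3 and LOXL4, the members with the fewest counts.

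**Figure D5:**
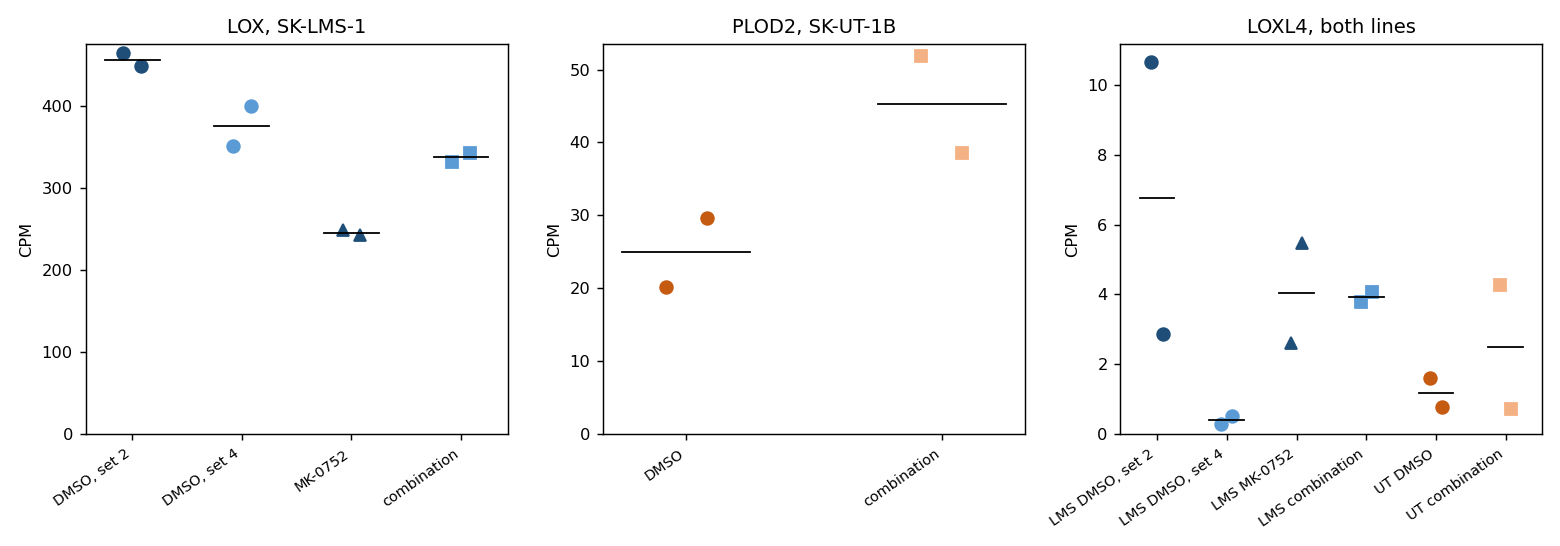
CPM by library (marks) and group mean (lines) of LOX in SK-LMS-1, PLOD2 in SK-UT-1B and LOXL4 in both lines. The MK-0752 libraries of LOX lie below all others, both PLOD2 libraries of the combination lie above those of DMSO, and LOXL4 spans 0.284 to 10.7 CPM in DMSO-treated SK-LMS-1.

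The substrates of these enzymes were unlike in the lines too. Of 12 fibrillar collagen and elastin genes, DMSO-treated SK-LMS-1 had 3 higher and 4 lower, beside 17% and 14.1% of all tested genes (median log2FC 0.11, all genes 0.00). COL1A1 measured 718 ± 39.8 CPM in SK-LMS-1 and 20.3 ± 2.15 CPM in SK-UT-1B (log2FC 5.14 ± 0.153, edgeR adjusted p = 1.29e-15), and COL11A1 and COL5A3 were higher as well (6.66 and 2.82). COL3A1 went the other way, with 101.5 ± 22.3 CPM against 3020 ± 44.7 CPM (log2FC -4.91 ± 0.138, adjusted p = 6.17e-16), as did COL5A2 (-3.95) and COL2A1, which was at 0 in SK-LMS-1 and at least 286-fold higher in SK-UT-1B. COL2A1 passed the filter on low counts through SK-UT-1B alone and had to differ. SK-UT-1B therefore combined abundant COL3A1 and COL5A2 RNA with low LOX family RNA. After MK-0752, COL1A1 and COL1A2, the chains of type I collagen, were the 2 genes of this list that passed on adjusted p alone, beside 0.365% of all tested genes. The median log2FC of the 12 genes was 0.20 after MK-0752, against 0.00 over all genes. Of the 12, 3 had an unadjusted p under 0.05, beside 1354 of all tested genes. COL1A1 and COL1A2 rose while LOX fell. COL1A1 went from 695 ± 27.0 to 1313 ± 49.3 CPM (log2FC 0.92 ± 0.133, adjusted p = 0.00210) and COL1A2 from 1145 ± 51.6 to 1838 ± 2.10 CPM (0.68 ± 0.130, adjusted p = 0.0203). In SK-UT-1B after the combination, COL1A1 instead fell from 20.3 ± 2.15 to 12.8 ± 0.390 CPM (log2FC -0.66 ± 0.138, edgeR adjusted p = 0.0293), also on adjusted p alone. There 1 of the 12 genes passed on adjusted p alone, beside 0.715% of all tested genes, and the median log2FC of the 12 was -0.53. COL1A1 and COL1A2 were named after their values were seen.

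Of 17 other procollagen modifying and folding factors, DMSO-treated SK-LMS-1 had 2 higher and 3 lower (median log2FC -0.05), beside 17% and 14.1% of all tested genes. P4HA3, the third alpha subunit of prolyl 4-hydroxylase, stood at 5.89 against 0.101 CPM, and P3H2, a prolyl 3-hydroxylase, was at least 110.7-fold higher. P4HA3 did not exceed 5 counts in SK-UT-1B, passed the filter on low counts through SK-LMS-1 alone and had to differ. P3H2 had 0 counts in DMSO-treated SK-UT-1B, and both are given as a description. SERPINH1, the collagen chaperone HSP47, was lower, with 218 ± 16.7 CPM against 902 ± 108 CPM (log2FC -2.05 ± 0.126, adjusted p = 5.69e-11), as were P3H1 and P3H4 (-1.97 and -2.05). In SK-UT-1B, P3H2 rose from 0 to 1.05 ± 1.02 CPM after the combination, at least 11.5-fold (edgeR adjusted p = 0.00650), and its effect differed from that in SK-LMS-1 (adjusted p = 0.0414). Its combination libraries were unequal, with 12 counts in 3-1 and 50 in 3-3, and the bound was at least 3.57-fold without 3-3 and at least 19.3-fold without 3-1. P4HB, the beta subunit shared by the P4HA enzymes, went from 928 ± 5.82 to 584 ± 121 CPM there (log2FC -0.67 ± 0.143, adjusted p = 0.0344) and SEC24D, a coat protein of procollagen export, from 198 ± 13.6 to 116 ± 29.1 CPM (-0.77 ± 0.171, adjusted p = 0.0417), both on adjusted p alone and named after their values were seen. After the combination in SK-UT-1B, 1 of the 17 was called, beside 0.559% of all tested genes. On adjusted p alone 1 was higher and 2 were lower, beside 0.715% of all tested genes in either direction. The median log2FC of the 17 was -0.05 against 0.00 over all genes. At an unadjusted p under 0.05 there were 7 of the 17 in this comparison, beside 2214 of the 21114 tested genes. In SK-LMS-1, 0 of the 17 were called by edgeR after MK-0752 or the combination. In each, 1 had an unadjusted p under 0.05, beside 1354 and 914 of all tested genes.

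Of 16 genes for procollagen and lysyl oxidase processing and scaffold proteins, DMSO-treated SK-LMS-1 had 8 higher and 3 lower (median log2FC 4.09). Of all tested genes 17% were higher and 14.1% lower. These 8 and the median include LUM, DCN and TLL1, which passed the filter on low counts through SK-LMS-1 alone and had to differ. LUM and DCN, small proteoglycans that bind collagen fibrils, were at 0 in DMSO-treated SK-UT-1B (LUM reached 0.984 CPM in 1 of the combination libraries) and at least 790.5-fold and 99.2-fold higher in SK-LMS-1, and TLL1, a protease related to the BMP1 that cleaves the LOX propeptide, at least 346-fold. POSTN, the matricellular protein periostin, and ADAMTS3, a procollagen N-proteinase, were lower (-2.80 and -4.38). After treatment 0 of the 16 were called by edgeR. In each comparison 3 to 4 had an unadjusted p under 0.05, beside 914 to 2214 of all tested genes. Of 8 tested genes for copper, ascorbate and iron supply, 1 was higher and 4 lower (median log2FC -1.20), beside 17% and 14.1% of all tested genes. ATP7A, the copper pump that loads LOX, was higher (1.09 ± 0.211, adjusted p = 0.000287), and ATP7B, TFRC and SLC40A1 were lower (-2.78, -1.92 and -1.98).

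Of 20 genes of the hypoxia response and its prolyl hydroxylases, DMSO-treated SK-LMS-1 had 8 higher and 2 lower (median log2FC 0.66). Of all tested genes 17% were higher and 14.1% lower. These 8 include CA9, which had 0 counts in SK-UT-1B, passed the filter on low counts through SK-LMS-1 alone and had to differ. EPAS1, which encodes HIF-2 alpha, measured 254 ± 11.5 CPM against 2.05 ± 2.15 CPM, NDRG1 225 ± 53.5 CPM against 9.76 ± 1.61 CPM, and CA9 was at least 123.5-fold higher, while VHL and ARNT were lower (-1.45 and -1.37). In SK-UT-1B, NDRG1 was the 1 gene of this list called after the combination, beside 0.559% of all tested genes. NDRG1 rose to 33.7 ± 2.63 CPM (log2FC 1.78 ± 0.194, adjusted p = 5.52e-05), in the comparison in which PLOD2 passed on adjusted p alone. Its effect differed from that in SK-LMS-1 by 2.21 ± 0.266 (adjusted p = 0.000265). Over all 20 genes of the list, the median log2FC after the combination in SK-UT-1B was 0.46 against 0.00 over all genes. Of these 20, 8 had an unadjusted p under 0.05, beside 2214 of the 21114 tested genes. Of 13 TGF-beta ligands and targets, DMSO-treated SK-LMS-1 had 10 higher and 0 lower (median log2FC 4.23), beside 17% and 14.1% of all tested genes. Adjusted p alone added 1 higher and 1 lower, with 41% of all genes passing it in either direction. TGFBI and LTBP2 had log2FC of 7.15 and 6.28. After MK-0752, CCN2, a matrix growth factor of this list, fell from 165 ± 6.68 to 75.0 ± 3.73 CPM (log2FC -1.14 ± 0.180, adjusted p = 0.00488), in the comparison in which LOX fell. CCN2 was the 1 of the 13 called there, beside 0.251% of all tested genes. The median log2FC of the 13 was -0.09 against 0.00 over all genes. Of the 13, 3 had an unadjusted p under 0.05, beside 1354 of all tested genes. Whether these lists move with LOX or PLOD2 for a shared reason was not tested.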

How the data were processed

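RNA was sequenced from 12 libraries of 2 uLMS lines in 6 groups of 2. Per the submitters' processing notes and the methods, the authors trimmed single-end reads with Trim Galore 0.3.7, aligned them to hg38 with STAR 2.7.9a and removed ribosomal RNA. They deposited raw read counts per gene from STAR, without normalization. The annotation, the strand setting and any removal of duplicate reads are not given in the sources used here, so reads may not be independent molecules, and counting limits cover counting error only. Gene coordinates, overlaps and exon lengths came from GENCODE v44 on hg38, in which 9 of the 10 member identifiers have the same version as in the table. The version of PLOD2 differs, so the length behind its levels per kb and shares may not be that used for its counts.

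Counts were tested with edgeR 4.0.16 under R 4.3.3 (TMM, filterByExpr, robust quasi-likelihood fit over all 6 groups, Benjamini-Hochberg over 21114 genes), and a call needed an adjusted p under 0.05 and a log2FC of 1 or more in size. CPM used TMM library sizes. A gene with at most 3 counts in every library of a group was taken as at the floor. Totals of 25250057 to 40709885 reads make 3 counts worth 0.0777 to 0.123 CPM. The edgeR and DESeq2 tests were tested on simulated data. From each list, called genes averaging 100 counts or more in the higher group were named between the lines after DMSO (up to 3 each way), and each called gene in the treatment comparisons. A gene that this rule takes is not reported here. Alternatives were DESeq2 1.42.0, its size factors, other count filters, only the libraries compared, other DMSO libraries, a replicate block, each library left out, and the longest transcript as length. Members and lists were chosen with earlier results of these data known.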

Additional observations from a re-analysis of the deposited data

How the results depend on the processing

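No member called between the lines after DMSO or after the combination changed direction or its call under any alternative. By adjusted p alone, 7 in place of 4 members were called between the lines after DMSO, 1 in place of 0 after the combination in SK-UT-1B and 1 in place of 0 after MK-0752. Leaving out 1 library at a time, 0 to 1 members were called after the combination in SK-UT-1B (PLOD2 without DMSO library 4-2 or combination library 3-3), 0 to 1 for the difference of the combination effects of the lines (PLOD2 without SK-UT-1B DMSO library 4-2), and 0 to 1 between the DMSO sets (LOXL4 without library 2-3). With 2 libraries a group, leaving out 1 leaves a lone library that is assumed to vary like the other groups. A replicate block on the library number in the combination comparison of SK-LMS-1 called 0 members, and over all genes 2 in place of 5. The correlation of the deviations of same-numbered libraries was -0.0118 over 2 pairs, which mirror each other in groups of 2 and so give 1 comparison. This does not show whether the libraries share more than a number. LOXL3 and LOXL4, with few reads, carry SEs near 1 on the log2 scale, which limits what a change in them can show.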
